A study of Homo sapiens with 4 samples.

Results

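Histone acetyltransferases attach an acetyl group, taken from acetyl-CoA, to lysines of histones and other proteins, and this mark is generally found at active genes. Zinc-dependent deacetylases (HDACs) and NAD-dependent sirtuins remove it, and proteins with a bromodomain bind it and bring further factors to chromatin. The p300 and CBP enzymes also add crotonyl groups, and the class I HDACs and several sirtuins can take such groups off. YEATS2 itself is a reader: its YEATS domain binds acetylated and crotonylated lysines of histone H3, and the protein is a subunit of the ATAC acetyltransferase complex.

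The genes described here are 35 of these enzymes and readers, chosen by symbol among the 60623 genes of the count files: 11 HDACs, the 7 sirtuins, 9 acetyltransferases (KAT2B, HAT1, KAT5, KAT6A, KAT6B, KAT7, KAT8, EP300 and CREBBP), the 3 p160 coactivators NCOA1, NCOA2 and NCOA3, and the 5 bromodomain proteins BRD2, BRD3, BRPF1, BRD1 and BRPF3. The rule used symbols alone, but the members were chosen with earlier results of these data known. All 35 were among the 17058 genes with enough counts to be tested. RNA-seq was performed on BICR10 cells, a line derived from a human cancer of the head and neck, after lentiviral delivery of a hairpin against YEATS2 (shYEATS2) or of a control hairpin (shControl), with 2 libraries per condition. Both conditions thus carried a lentiviral hairpin, and the study's methods give puromycin selection for both. The study lists more than 1 YEATS2 hairpin, and the sources used here do not say which one the shYEATS2 cells carried, so an effect of that hairpin on other genes cannot be told apart from an effect of YEATS2. The labels do not say that the libraries of a condition came from separate cultures, so the p-values measure the spread between these libraries, which may be technical.

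YEATS2, the targeted gene, stood at 66.1 and 66.7 CPM (counts of a gene relative to its library's total, scaled by TMM) in the shControl libraries and at 29.2 and 29.1 CPM in the shYEATS2 libraries, a log2 fold change of −1.19 (SE 0.08, adjusted p = 3.6e-21, edgeR's quasi-likelihood test). The counts on genes totalled 39824898 to 47297970 in shControl and 11334133 to 24072396 in shYEATS2, so depth differed with the condition. Most markers of squamous epithelium were low for a line of this label: TP63 had 0 to 3 counts in each library, EPCAM at most 1.23 CPM, and KRT5 went from 16.4 and 15.0 CPM in shControl to 1.03 and 1.36 CPM in shYEATS2. Fibroblast markers were abundant in shControl, with COL1A1 at 2845 and 2747 CPM there and 927 and 855 CPM in shYEATS2. The 9 fibroblast markers summed to 7302 and 7212 CPM in shControl and 2363 and 2224 CPM in shYEATS2, with 7 of the 8 tested called lower. Of all genes tested, 23.6% were called lower and 22.6% higher. The 8 squamous markers summed to 155 and 154 CPM in shControl and 142 and 132 CPM in shYEATS2, mostly SFN, with 4 of the 6 tested called lower and 1, CDH1, called higher. The 5 endothelial markers, mostly KDR, summed to 35.6 and 36.6 CPM in shControl and 18.9 and 20.2 CPM in shYEATS2, with KDR called lower (0.498-fold) and TEK, under 1 CPM, called higher (log2 fold change 1.83) among the 3 tested. The 6 immune markers summed to 0.553 to 1.85 CPM, with CD3E and CD68 at 0 counts in every library. The part of these marker changes and of depth in the results below was not tested, except where the counts were thinned to 1 depth. In bulk RNA, fewer cells of a type and less RNA per cell cannot be told apart.

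Of the 35 genes, 4 were called lower and 10 higher in shYEATS2 at a Benjamini-Hochberg adjusted p under 0.05 over all genes tested, while 21 were not called. Over all genes tested, 23.6% were called lower and 22.6% higher. With the same filter, DESeq2 called 4 of the 35 lower and 9 higher, beside 17.3% and 16.5% of all genes tested. The 4 that fell were HDAC1, HDAC3, HDAC5 and HAT1. The 10 that rose were HDAC2, HDAC4, HDAC9, HDAC11, SIRT7, EP300, NCOA3, BRD2, BRD3 and BRPF3. The 2 conditions did not overlap for 27 genes, 12 of them with both shYEATS2 values under both shControl values and 15 with both above, where 36.3% and 35.3% of all genes tested did so.

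The changes were small beside those of the transcriptome. The median log2 fold change was 0.06 over the 35 genes and −0.01 over all genes tested, and the median absolute log2 fold change was 0.18 against 0.31. A change of at least 2-fold that passed the test was seen for HDAC9 alone, or 2.86% of the 35, against 9.69% of all genes tested. Of the 14 called genes, 11 had an absolute log2 fold change under 0.5. Since most of these genes were well expressed, they were also set beside genes of at least 10 CPM on average, a level chosen after the data were seen. At that level 4 of 32 members were called lower (12.5%) and 9 higher (28.1%), where 32.1% of 9365 genes were called lower and 25.5% higher. The median absolute log2 fold change lay closer at that level, 0.17 for the members against 0.23. Scaling by library totals alone moved the median of all genes by more than 0.1, from −0.01 to 0.13, and the calls over all genes from 4019 lower and 3857 higher to 2567 lower and 5441 higher. Under that scaling 4 of the 35 were called lower and 16 higher, and no called gene turned its direction.

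**Figure D1:**
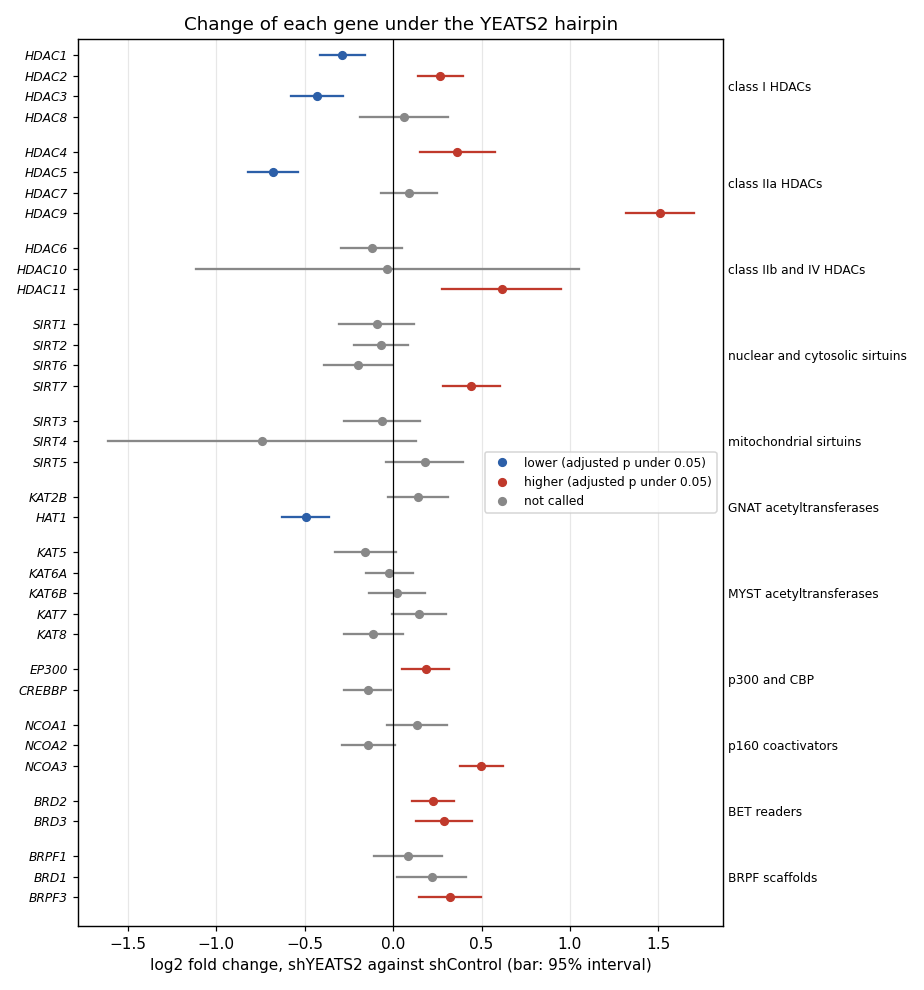
Log2 fold change of each of the 35 genes, shYEATS2 against shControl, with its 95% interval from edgeR's quasi-likelihood test (2 libraries per condition), grouped by class. HDAC9 stands alone above 1, at 1.51, HDAC5 is the lowest of the called genes at −0.68, and the wide bars of HDAC10 and SIRT4 belong to genes under 1.1 CPM.

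The levels of these genes spanned more than 2 orders of magnitude. To compare genes, each CPM was divided by the length in kb of the gene's representative transcript (MANE Select or Ensembl canonical). On this scale HAT1 was the highest in shControl at 68.2 ± 0.749 CPM per kb (SD, n = 2), followed by HDAC1 at 56.4 ± 0.321, BRD2 at 46.0 ± 1.03, HDAC3 at 34.9 ± 0.293 and SIRT2 at 26.4 ± 0.198. These 5 neighbours in the order lay further apart than their spread. In shYEATS2 BRD2 came first at 53.8 ± 2.53 CPM per kb and HAT1 next at 48.6 ± 2.18, above HDAC1 at 46.2 ± 0.515 in both libraries, although the ranges of mean ± SD of this pair overlapped. From the 14th to the 16th place in shControl, EP300 (8.93 ± 0.176 CPM per kb), KAT6A (8.53 ± 0.112) and CREBBP (8.47 ± 0.0890) lay close, and KAT6A and CREBBP did not differ beyond their spread. HDAC9 was 33rd of 35 in shControl, at 1.24 ± 0.0132 CPM per kb, and 30th in shYEATS2, at 3.56 ± 0.339. SIRT4 and HDAC10 were the lowest in both conditions.

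**Figure D2:**
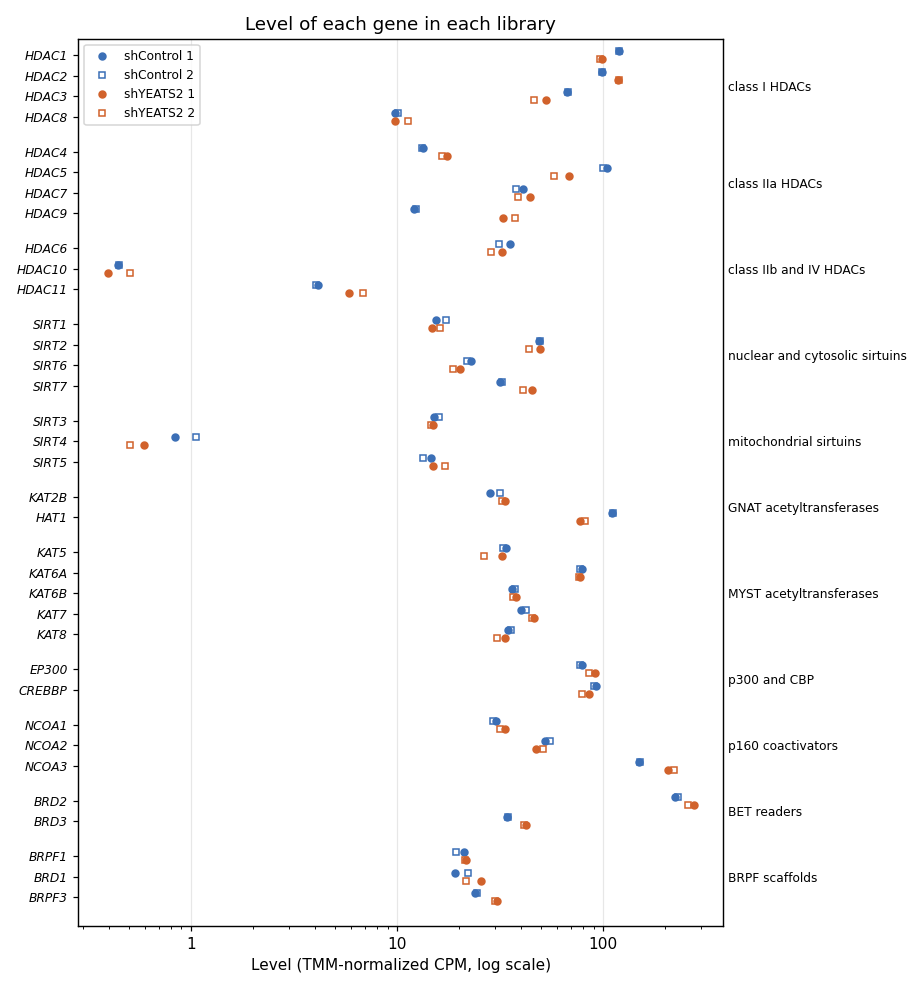
Level of each of the 35 genes in each of the 4 libraries, as TMM-normalized CPM on a log axis, grouped by class; CPM is not divided by transcript length, so rows are compared between libraries and not with each other. The shControl and shYEATS2 points separate most clearly for HDAC9, which goes from about 12 CPM to between 32.8 and 37.5 CPM.

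The class I deacetylases work in the nucleus, HDAC1 and HDAC2 side by side in the NuRD, SIN3, CoREST and MiDAC complexes and HDAC3 in the NCoR and SMRT complexes. HDAC1 and HDAC2, close relatives that often share a complex, moved in opposite directions. HDAC1 (chr1:32292083-32333635 of GRCh38, plus strand) had 119 and 119.9 CPM in shControl and 98.5 and 97.0 CPM in shYEATS2. It was lower in both shYEATS2 libraries, by −0.29 on the log2 scale (SE 0.06, adjusted p = 1.5e-04, edgeR's quasi-likelihood test). HDAC2 (chr6:113933028-114011308, minus strand) had 98.4 and 99.1 CPM in shControl and 119 and 119 CPM in shYEATS2. It was higher in both, by 0.27 (SE 0.06, adjusted p = 3.9e-04). Within a library the ratio of HDAC2 counts to HDAC1 counts, which no scaling between libraries can alter, was 0.827 and 0.827 in shControl and 1.20 and 1.23 in shYEATS2, so the more abundant of the pair by counts changed places. Per kb of transcript HDAC1 remained the higher, and HDAC2 made up 9.47% of the class I level in shControl and 13.5% in shYEATS2.

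HDAC3 had 67.1 and 67.9 CPM in shControl and 53.2 and 46.1 CPM in shYEATS2. The shYEATS2 libraries were lower and further apart than the shControl pair, and the log2 fold change was −0.43 (SE 0.07, adjusted p = 1.3e-06). HDAC8, the remaining class I enzyme, ranged from 9.79 to 11.4 CPM over the 4 libraries, with the 2 groups overlapping, and was not called (log2 fold change 0.06, 95% interval −0.19 to 0.31). Summed per kb, the 4 class I genes went from 107 ± 0.788 to 90.1 ± 2.46 CPM per kb (SD, n = 2). The transcript lengths used were 9737 bases for HDAC2, 2118 for HDAC1 and 1933 for HDAC3, so the rise of HDAC2 weighs less per kb. In CPM, not divided by length, the sum was 294 and 297 in shControl and 280 and 273 in shYEATS2, a smaller fall. An exact permutation test of such a sum cannot give a p below 0.333 with 2 libraries on each side, so sums and ratios carry no test here.

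The stretches before the starts of HDAC1 and HDAC2 are shown because this pair moved in opposite directions. They are the 250 bases upstream of the single start that RefSeq lists for each (GRCh38.p14), chr1:32291833-32292082 on the plus strand and chr6:113971149-113971398 on the minus strand, written 5′ to 3′ with the letters GGGCGG, the core of the GC box bound by SP1 and its relatives, in capitals wherever they occur on either strand.
HDAC1: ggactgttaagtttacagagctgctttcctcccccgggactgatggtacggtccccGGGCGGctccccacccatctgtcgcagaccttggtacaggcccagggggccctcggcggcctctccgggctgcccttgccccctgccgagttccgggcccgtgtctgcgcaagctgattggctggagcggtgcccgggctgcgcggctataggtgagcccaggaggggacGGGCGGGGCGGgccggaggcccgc
HDAC2: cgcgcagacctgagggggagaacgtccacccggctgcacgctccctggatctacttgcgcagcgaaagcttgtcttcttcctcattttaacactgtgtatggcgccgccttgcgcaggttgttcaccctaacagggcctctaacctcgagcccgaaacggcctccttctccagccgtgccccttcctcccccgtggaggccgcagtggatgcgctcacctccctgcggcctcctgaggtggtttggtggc
The HDAC1 stretch holds 3 such matches, of which 2 share a base, and the HDAC2 stretch holds 0. Over the full RefSeq windows, from 250 bases before to 50 bases after the start, the letters were present in 11 of the 18 members with a single listed start and in 45% of all 35116 windows. In the same windows CCAAT was present in 4 of 18 (34.6% of all windows), CACGTG in 2 (7.26%), TATAAA in 0 (11.5%) and TGACGTCA in 0 (1.85%), each searched on both strands. The 35116 windows include genes with several starts, which the 18 members leave out, so these shares come from unlike sets. Among called members with a single start that fell, the full window held GGGCGG 6 times for HDAC1, 3 for HDAC3 and 1 for HAT1. Among those that rose, it held 6 for BRD3, 5 for HDAC11, 3 for BRPF3, and 0 for HDAC2, EP300 and NCOA3. A match is a run of letters and not a measured binding site. RefSeq windows were matched for 30 of the 35 members, 12 of them with several starts, among them HDAC9 with 5.

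The class IIa deacetylases HDAC4, HDAC5, HDAC7 and HDAC9 have little deacetylase activity of their own. They shuttle between cytoplasm and nucleus, are held in the cytoplasm by 14-3-3 proteins after phosphorylation, and repress MEF2 target genes. This class held both the largest rise and the largest fall among the called members. HDAC9 (chr7:18086949-19002416, plus strand) had 12.1 and 12.3 CPM in shControl, from 551 and 466 counts, and 32.8 and 37.5 CPM in shYEATS2, from 830 and 442 counts. The groups were far apart, a 2.84-fold rise (log2 fold change 1.51, 95% interval 1.32 to 1.70, SE 0.10, adjusted p = 9.0e-22, edgeR's quasi-likelihood test). Of the 17058 genes tested, 3.31% rose more.

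HDAC5 (chr17:44076746-44123702, minus strand) had 104 and 100.3 CPM in shControl and 68.4 and 57.9 CPM in shYEATS2. Both shYEATS2 libraries were lower, with a log2 fold change of −0.68 (95% interval −0.82 to −0.54, SE 0.07, adjusted p = 1.4e-12). HDAC4 rose from 13.4 and 13.2 CPM to 17.5 and 16.6 CPM (log2 fold change 0.36), a call that was lost without shControl 2 or without shYEATS2 1 at log2 fold changes of 0.35 and 0.31. HDAC7 ranged from 37.9 to 44.4 CPM with overlapping groups and was not called (log2 fold change 0.09, 95% interval −0.07 to 0.25). It was called higher under library totals alone (log2 fold change 0.23).

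The makeup of the class shifted. Per kb, HDAC5 made up 61.2% of the class IIa level in shControl and 43.4% in shYEATS2, HDAC9 3.95% and 13.1%, HDAC7 29.8% and 36.1%, and HDAC4 5.02% and 7.40%. The sum of the 4 genes was 31.4 ± 1.02 CPM per kb in shControl and 27.3 ± 2.09 in shYEATS2. In CPM the sum was 171 and 164 in shControl and 163 and 151 in shYEATS2. The ratio of HDAC9 to HDAC5 counts within a library was 0.117 and 0.123 in shControl and 0.479 and 0.648 in shYEATS2. HDAC5 remained the more abundant in every library.

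**Figure D3:**
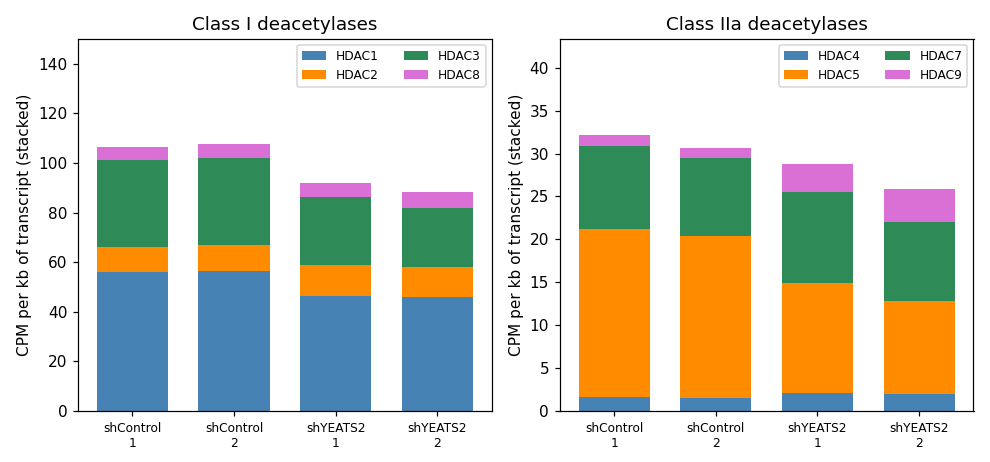
Stacked levels of the class I (left) and class IIa (right) deacetylase genes in each library, in CPM per kb of representative transcript, with each bar starting at 0. On the right the HDAC5 block shrinks and the HDAC9 block grows in both shYEATS2 libraries, from a mean share of 3.95% to 13.1%, while on the left the HDAC1 and HDAC3 blocks shrink.

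HDAC6, a mostly cytoplasmic class IIb enzyme that acts on tubulin, ranged from 28.5 to 35.2 CPM with overlapping groups and was not called (log2 fold change −0.12, 95% interval −0.29 to 0.05). HDAC10, known as a polyamine deacetylase, had only 6 to 20 counts per library, and 55.8% of its annotated exon bases are shared with MAPK12 on the same strand, so reads there could be set aside as ambiguous. The representative transcript of MAPK12 lies 1495 bases outside HDAC10, so the shared bases belong to other annotated transcripts of MAPK12. For HDAC10 the interval of −1.12 to 1.05 was wide, so only a large change in either direction was detectable at this depth. HDAC11, the single class IV enzyme, known to remove long fatty acyl groups, had 4.14 and 4.05 CPM in shControl and 5.88 and 6.87 CPM in shYEATS2. It was higher in both shYEATS2 libraries (log2 fold change 0.61, SE 0.17, adjusted p = 1.9e-03), and this call was lost when all libraries were thinned to the smallest total (log2 fold change 0.43, adjusted p = 0.0987).

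Among the sirtuins, 1 of 7 was called, where 46.2% of all genes tested were called in either direction. SIRT7, a nucleolar enzyme that removes acetyl groups from histone H3 lysine 18, had 31.8 and 32.3 CPM in shControl and 45.4 and 41.1 CPM in shYEATS2. It was higher in both shYEATS2 libraries, 1.36-fold (log2 fold change 0.44, SE 0.08, adjusted p = 4.3e-06). SIRT6, a nuclear deacetylase of histone H3, had 23.0 and 22.0 CPM in shControl and 20.2 and 18.7 CPM in shYEATS2. Its groups did not overlap, but it was not called (log2 fold change −0.20, adjusted p = 0.086), and it was called lower only without shYEATS2 1 (adjusted p = 0.047). The ratio of SIRT7 to SIRT6 counts was 1.38 and 1.47 in shControl and 2.25 and 2.20 in shYEATS2. SIRT1, the nuclear deacetylase of p53, ranged from 14.7 to 17.3 CPM, and SIRT2, the cytosolic tubulin deacetylase, from 43.8 to 49.5 CPM, both with overlapping groups (log2 fold changes −0.09 and −0.07).

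The mitochondrial sirtuins are a deacetylase (SIRT3), an enzyme with weak activities that include lipoamidase activity (SIRT4) and a desuccinylase (SIRT5). With TMM scaling none of the 3 was called by edgeR's quasi-likelihood test, where 46.2% of all genes tested were. SIRT3 ranged from 14.7 to 16.0 CPM, with a log2 fold change of −0.06. SIRT5 had 14.6 and 13.3 CPM in shControl and 15.0 and 17.1 CPM in shYEATS2 (log2 fold change 0.18). It was called higher under library totals alone (log2 fold change 0.31). SIRT4 had 38 and 40 counts in the shControl libraries (0.838 and 1.06 CPM) and 15 and 6 counts in the shYEATS2 libraries (0.592 and 0.509 CPM). Both shYEATS2 values were lower, but the log2 fold change of −0.74 had an interval of −1.61 to 0.13, and no difference was detectable at this depth.

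The GNAT family was represented by KAT2B (PCAF), a catalytic subunit of SAGA-type complexes, and HAT1, which acetylates newly made histone H4 before it is placed on DNA. HAT1 (chr2:171922448-171983686, plus strand) had 111 and 112 CPM in shControl and 76.9 and 82.0 CPM in shYEATS2. Both shYEATS2 libraries were lower, 0.710-fold (log2 fold change −0.49, 95% interval −0.63 to −0.36, SE 0.07, adjusted p = 3.3e-09). KAT2B ranged from 28.4 to 33.5 CPM and was not called (log2 fold change 0.14, 95% interval −0.03 to 0.31). It was called higher when the libraries were thinned to 1 depth (log2 fold change 0.27) and under library totals alone.

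The 5 MYST enzymes showed no call, where 46.2% of all genes tested were called in either direction. These are KAT5 (TIP60), the catalytic subunit of the NuA4 complex, KAT6A (MOZ) and KAT6B (MORF), which act on histone H3 lysine 23, KAT7 (HBO1), which acetylates histone H3 lysine 14 and histone H4, and KAT8 (MOF), which acetylates histone H4 lysine 16. KAT6A lay between 76.7 and 78.8 CPM and KAT6B between 36.3 and 37.8 CPM, with intervals of −0.16 to 0.11 and −0.14 to 0.18. The ratio of KAT6B to KAT6A counts was 0.461 and 0.483 in shControl and 0.490 and 0.479 in shYEATS2, a range in which the groups overlapped. KAT7 ranged from 40.1 to 46.0 CPM (log2 fold change 0.15), KAT8 from 30.7 to 35.7 CPM (−0.11) and KAT5 from 26.6 to 33.8 CPM (−0.16). KAT7 was called higher under library totals alone (log2 fold change 0.28). KAT5 was called lower only without shYEATS2 1 (log2 fold change −0.34).

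EP300 and CREBBP encode p300 and CBP, paralogous acetyltransferases of histone H3 lysines 18 and 27 at enhancers. EP300 had 79.5 and 77.3 CPM in shControl and 91.6 and 85.9 CPM in shYEATS2. It was higher in both and was called (log2 fold change 0.18, adjusted p = 0.019), but this was the least stable call of the 14: it was lost under 5 of 13 alternatives, namely DESeq2 (adjusted p = 0.0518), no filter, and the omission of shControl 1, shControl 2 or shYEATS2 1, at log2 fold changes of 0.12 to 0.20. CREBBP had 92.0 and 90.7 CPM in shControl and 85.7 and 79.0 CPM in shYEATS2 and was not called (log2 fold change −0.14, adjusted p = 0.071). It was called lower under 3 of 13 alternatives, among them no filter and the omission of shYEATS2 1, at log2 fold changes of −0.19 and −0.22. The ratio of EP300 to CREBBP counts was 0.863 and 0.852 in shControl and 1.07 and 1.09 in shYEATS2. EP300 thus passed CREBBP in counts in both shYEATS2 libraries.

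The p160 coactivators bind nuclear receptors and bring p300 and CBP to them. NCOA3 (SRC-3, AIB1), a gene amplified in some breast cancers, had 149 and 151.5 CPM in shControl and 206 and 220.3 CPM in shYEATS2. It was higher in both shYEATS2 libraries, 1.41-fold (log2 fold change 0.50, 95% interval 0.38 to 0.62, SE 0.06, adjusted p = 2.1e-10). NCOA1 ranged from 29.1 to 33.4 CPM and NCOA2 from 47.1 to 55.6 CPM. Neither was called, with log2 fold changes of 0.14 and −0.14, although NCOA2 was called lower without shYEATS2 2 (−0.20) and NCOA1 higher under library totals alone (0.27). NCOA3 made up 64.4% of the p160 level per kb in shControl and 72.3% in shYEATS2, and the ratio of NCOA3 to NCOA2 counts went from 2.85 and 2.73 to 4.36 and 4.29.

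**Figure D4:**
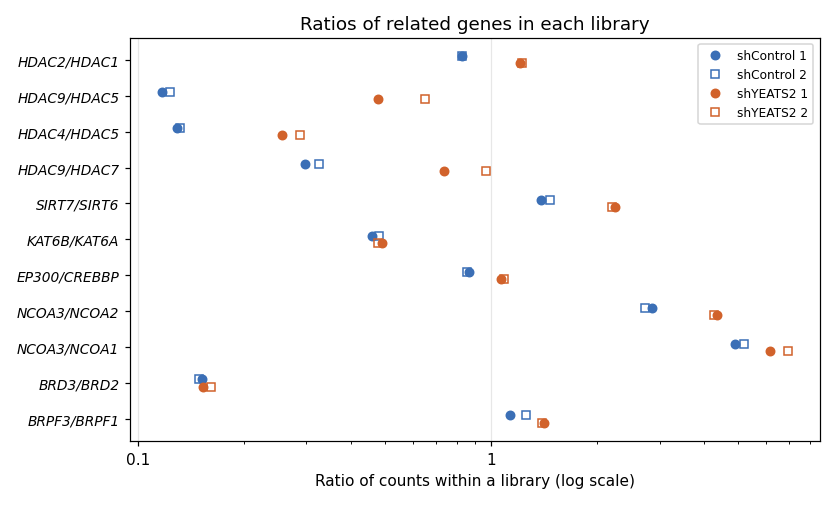
Ratio of counts of related genes within each library, on a log axis, for 11 pairs chosen after their values were seen. The counts of a pair come from 1 library, so no normalization between libraries enters. The libraries of the 2 conditions are clearly apart for HDAC9/HDAC5 (0.117 and 0.123 against 0.479 and 0.648) and HDAC2/HDAC1, and overlap for KAT6B/KAT6A.

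The readers in the set bind acetylated lysines. BRD2 and BRD3, of the BET family, bind acetylated histone H4 at active promoters and enhancers, and both were called higher. BRD2 had 224 and 232 CPM in shControl and 275 and 258 CPM in shYEATS2 (log2 fold change 0.23, adjusted p = 1.1e-03). BRD3 had 34.0 and 34.5 CPM in shControl and 42.2 and 41.4 CPM in shYEATS2 (log2 fold change 0.29, adjusted p = 2.0e-03). Both calls were lost without shControl 1, at log2 fold changes of 0.20 and 0.28. The ratio of BRD3 to BRD2 counts was 0.152 and 0.149 in shControl and 0.153 and 0.161 in shYEATS2.

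BRPF1, BRD1 (BRPF2) and BRPF3 are scaffolds that hold KAT6A, KAT6B or KAT7 and direct them to histone H3. BRPF3 had 24.0 and 24.5 CPM in shControl and 30.5 and 30.0 CPM in shYEATS2 and was called higher, 1.25-fold (log2 fold change 0.32, adjusted p = 1.8e-03). BRPF1 ranged from 19.4 to 21.6 CPM and was not called (log2 fold change 0.08, 95% interval −0.11 to 0.28). BRD1 had 19.2 and 22.1 CPM in shControl and 25.6 and 21.7 CPM in shYEATS2, with overlapping groups, and was not called (log2 fold change 0.22, adjusted p = 0.059). It was called higher by limma-voom, without shYEATS2 2 and under library totals alone.

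The proteins that work with these enzymes were examined through 11 lists of 125 genes, taken from the composition of their complexes and from the supply of their cofactors. Of the 124 tested, 28 were called lower and 22 higher, or 22.6% and 17.7%, beside 23.6% and 22.6% of all genes tested, and their median log2 fold change was −0.03. DESeq2 called 24 lower and 17 higher, beside 17.3% and 16.5% of all genes tested. With library totals alone the split was 17 lower and 40 higher, beside 2567 lower and 5441 higher of the 17058 genes tested. For NuRD, the nucleosome remodelling complex of HDAC1 and HDAC2, 3 of 12 partners were called lower and 0 higher. CHD4, the motor subunit, had 19.8 and 17.7 CPM in shControl and 12.7 and 13.6 CPM in shYEATS2 (log2 fold change −0.52), and the histone chaperone RBBP4 had 164 and 159.7 CPM against 121 and 109 CPM (−0.49). The remaining call was RBBP7 (−0.15), named after its value was seen.

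For SIN3, the other main complex of HDAC1 and HDAC2, 2 of 14 partners were called lower and 2 higher. The shares over all genes tested were 23.6% and 22.6%. SINHCAF (FAM60A), a SIN3-HDAC subunit, had 20.4 and 20.6 CPM in shControl and 42.6 and 42.3 CPM in shYEATS2, 2.07-fold higher (log2 fold change 1.05, SE 0.08, adjusted p = 3.9e-17), the largest rise among the partners tested. SAP30L also rose (0.26), while SAP18 (−0.32) and the scaffold SIN3A (−0.27) fell. Of the 12 CoREST and MiDAC partners 2 were called lower, among them MIER3 (−0.29), and 1 higher, MIDEAS, the scaffold of the mitotic deacetylase complex, from 19.0 and 17.0 CPM to 29.7 and 27.5 CPM (0.68). The histone demethylase KDM1A and the RCOR scaffolds were not among the calls.

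For the NCoR and SMRT complexes, which hold HDAC3, 3 of 6 partners were called higher and 0 lower. Over all genes tested, 22.6% were called higher and 23.6% lower. HDAC3 itself fell. TBL1X, a WD40 subunit, had 43.3 and 41.7 CPM in shControl and 71.9 and 70.0 CPM in shYEATS2 (log2 fold change 0.74, SE 0.07, adjusted p = 7.5e-14). CORO2A rose by 0.23, and the corepressor NCOR1, named after its value was seen, by 0.22. Of the 9 partners of class IIa deacetylases, which include the MEF2 factors, 14-3-3 proteins and kinases, 2 were called lower and 2 higher. YWHAE (−0.35) and YWHAB (−0.18), both 14-3-3 proteins, fell, and YWHAZ (0.38), another of them, and the kinase gene CAMK2D (0.32) rose.

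Around the acetyltransferases, 4 of 17 NuA4/TIP60 partners were called lower and 4 higher, beside 23.6% and 22.6% of all genes tested. DMAP1 (−0.61) and MORF4L2 (−0.47) fell most, and EPC1 (0.34) and the actin-like subunit ACTL6A (0.28) rose most. For the MOZ, MORF and HBO1 complexes 1 of 5 partners was called lower and 3 higher. JADE2 had 279 and 279 CPM in shControl and 195 and 185 CPM in shYEATS2 (−0.55), whereas ING5 (0.44) and the JADE2 relative JADE3 (0.39) rose. JADE1 (0.32) was the other that rose, named after its value was seen. For MSL and NSL, the complexes of KAT8, 1 of 11 was called lower, HCFC1 (−0.38), and 2 higher, MSL2 (0.26) and KANSL2 (0.24). The 18 SAGA partners held 5 that fell and 3 that rose. KAT2A (GCN5), the catalytic subunit that SAGA shares with the ATAC complex of YEATS2 and the close relative of KAT2B, had 30.7 and 31.1 CPM in shControl and 21.6 and 19.8 CPM in shYEATS2 (log2 fold change −0.57, SE 0.09, adjusted p = 3.4e-07). TAF6L (−0.61) fell too, and ATXN7L3 (0.33) and ENY2 (0.27), both of the deubiquitinase module, rose. YWHAZ, YWHAE, YWHAB, RBBP4, SAP18, MORF4L2 and HDAC1 have annotated pseudogene copies, with which reads could be shared.

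**Figure D5:**
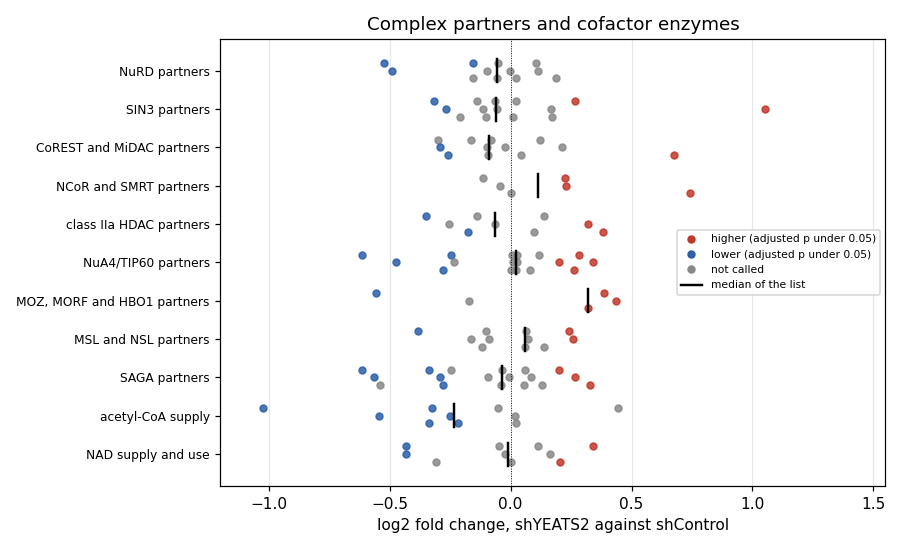
Log2 fold change of the 124 partner genes tested, in 11 lists, with 1 point per gene coloured by its call in edgeR's quasi-likelihood test and a black bar at each list's median. Points of both colours stand in 8 lists, all called points lie below 0 in the NuRD (3 of 12) and acetyl-CoA (6 of 10) lists and above 0 in the NCoR and SMRT list (3 of 6), and SINHCAF is the point at 1.05. Over all genes tested, 23.6% were called lower and 22.6% higher, so the NuRD count lies near that share.

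The genes that supply acetyl-CoA, the substrate of the acetyltransferases, held 6 of 10 that were called lower and 0 higher, where 23.6% and 22.6% of all genes tested were, with a median log2 fold change of −0.23, beside −0.01 over all genes tested. ACSS2, the acetate-using enzyme of cytosol and nucleus, had 32.0 and 31.0 CPM in shControl and 22.0 and 21.0 CPM in shYEATS2 (log2 fold change −0.55, SE 0.09, adjusted p = 6.1e-07). PDHA1, a subunit of pyruvate dehydrogenase, had 182 and 181 CPM against 143 and 144 CPM (−0.34). The others called, named after their values were seen, were DLAT (−0.33) and DLD (−0.22) of the same enzyme, the ATP citrate lyase gene ACLY (−0.25), and ACSS1, the mitochondrial relative of ACSS2, at 3.12 ± 0.217 CPM in shYEATS2 against 6.45 ± 0.609 CPM (−1.02). For NAD, the cosubstrate of the sirtuins, 2 of the 10 genes tested were called lower, NADSYN1 (−0.43) and NNMT (−0.43), and 2 higher, SLC25A51 (0.34), the mitochondrial NAD carrier, and NMRK1 (0.20). NMNAT3, with 3 to 22 counts, was not tested.

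Several members share exon bases with a neighbour, and the strand setting of the counting is not given in the sources used here. On the opposite strand, G6PC3 shares 24% of the exon bases of HDAC5 and was called lower at −0.20, RNASEH2C shares 38.6% of those of KAT5 and was called lower at −0.27, and BRD3OS shares 18.6% of those of BRD3 and was called lower at −0.27 where BRD3 rose. SULF2, whose exons overlap those of NCOA3 by 247 bases on the opposite strand, went from 19.1 and 17.5 CPM to 1.70 and 2.29 CPM (−3.27) where NCOA3 rose. Those 247 bases are 2.93% of the exon bases of NCOA3. The representative transcripts of SULF2 and G6PC3 lie 528 and 401 bases outside NCOA3 and HDAC5, while those of RNASEH2C and BRD3OS overlap KAT5 and BRD3. Without the strand, reads from such a pair cannot be told apart, and the part of these overlaps in the members' values was not tested.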

How the data were processed

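The RNA of 4 BICR10 libraries (2 shControl, 2 shYEATS2) was measured by stranded, poly(A)-selected, paired-end RNA-seq. Per the labels, STAR, HTSeq and the GRCh38 build were used by the authors, who deposited raw counts per gene, without normalization; the annotation release and strand setting are not given in the sources used here. Ambiguous reads were 4.31% to 4.61% of each library, and reads on no feature 7.64% to 8.57%; both stayed out of totals and tests.

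Genes passing filterByExpr were scaled by TMM and tested with edgeR 4.0.16 (R 4.3.3, robust quasi-likelihood test, Benjamini-Hochberg threshold 0.05). SE is the absolute log2 fold change divided by the square root of F. The methods were tested on simulated data in which few genes changed. Here 46.2% of all genes tested were called, so that test does not bear on the scaling. Alternatives were DESeq2 1.42.0, limma-voom (limma 3.58.1), other scalings and filters, a replicate block, counts thinned to 11334133, and each library left out in turn. Positions, lengths and overlaps came from GENCODE 44 (60295 of 60623 identifiers matched).

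The members and gene lists were chosen with earlier results of these data known. All members are named; from each partner list the text names up to 2 rises and 2 falls, the largest calls whose groups do not overlap and whose mean is 10 CPM or more, and marks others as named after their values were seen. A partner gene is not reported here. The 11 ratio pairs were chosen after their values were seen. Replicates differed beyond counting noise (chi-square per degree of freedom 6.39 and 5.82).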

Additional observations from a re-analysis of the deposited data

How the results depend on the processing

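Of the 14 called members, 9 (HDAC1, HDAC2, HDAC3, HDAC5, HDAC9, SIRT7, HAT1, NCOA3 and BRPF3) kept their call and direction in each of 13 alternatives, 5 lost it in at least 1, and no member was called in opposite directions. With library totals alone, 4 members were called lower and 16 higher, and 17 partners lower and 40 higher. Of the 17058 genes tested, 2567 were then called lower and 5441 higher. The members' median log2 fold change was 0.20 under that scaling, beside 0.13 over all genes tested. It was 0.013 with no filter, beside −0.10, and 0.082 with at least 10 counts in every library, beside −0.005. Leaving out 1 library in turn gave 4 to 7 members called lower, the 7 without shYEATS2 1, 7 to 11 called higher, 14 to 22 partners called higher, the 14 without shControl 2, and medians from 0.034 to 0.065. The cause of these shifts was not tested. Over all genes tested, the differences between libraries 1 and 2 did not correlate between the conditions (correlation −0.018). Noise of weakly counted genes lowers such a value, so it does not exclude a pairing. With a replicate block, 5 members were called lower and 10 higher, beside 4142 and 3870 of the 17058 genes tested. CREBBP was the added one (log2 fold change −0.15, adjusted p = 0.0388, edgeR's quasi-likelihood test). HDAC10 and SIRT4 gave no value where their counts fell under a filter. Depth limits these 2 genes most: at 6 counts in the shallowest library, only large changes were detectable.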

Other observations

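TWIST1, a transcription factor of the epithelial to mesenchymal transition, is the neighbour of HDAC9 on chromosome 7, its representative transcript lying 113.1 kb beyond the end of HDAC9 (GRCh38). It was picked after its values were seen. TWIST1 had 275 and 310.2 CPM in shControl and 163 and 165 CPM in shYEATS2, lower in both (log2 fold change −0.83, SE 0.06, adjusted p = 1.6e-18, edgeR's quasi-likelihood test), while HDAC9 rose by 1.51. How these values came about was not tested.

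By the length of genome from start to end, the members called higher had a median span of 58.3 kb, those called lower 44.3 kb and those not called 40.9 kb. Spearman's rho between span and log2 fold change was 0.29 across the 35 members and 0.04 across 16990 genes, a description across genes, which are not independent and share the same 4 libraries.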
